A study of Mus musculus with 16 samples.

Results

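Ciliary neurotrophic factor and leukaemia inhibitory factor belong to the cytokine family that signals through gp130, the receptor subunit encoded by Il6st. The data cover 7 genes of that system in the mouse trigeminal ganglion: the ligands Cntf, Lif and Clcf1 and the receptor subunits Cntfr, Lifr, Il6st and Il6ra. They were named with earlier results of these data known, and all 7 were found among the 25719 genes listed in each library. Whole trigeminal ganglia were sequenced from wild-type (WT) mice and from mice lacking Nogo-A (KO), the long protein of the gene Rtn4 and an inhibitor of neurite growth. The 4 groups, E14 WT, E14 KO, P25 WT and P25 KO, held 4 libraries each, taken on embryonic day 14 (E14) or postnatal day 25 (P25), with 1 ganglion per library. The sources used here do not give the strain, the sex, or how the deletion was made. The names of 2 pairs of E14 libraries share a number with R and L (WT replicates 2 and 4, KO replicates 1 and 3). These may be the ganglia of 1 animal, and each p-value rests on how far single ganglia of a group differ.

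In this system a ligand first meets a subunit that gives specificity and then a signalling pair. The CNTF receptor subunit alpha, encoded by Cntfr, is held in the membrane by a lipid anchor and has no signalling tail. It recruits the LIF receptor (Lifr) and gp130 (Il6st), whereas LIF binds Lifr and gp130 without an alpha subunit. The interleukin 6 receptor alpha subunit (Il6ra) works with gp130 alone. Both signalling chains carry Janus kinases that phosphorylate STAT3, and SOCS3 ends the signal. Cntf is known as a product of myelinating Schwann cells in peripheral nerve, and its protein lacks a classical secretion signal. Lif is known to rise after nerve injury. Clcf1 encodes another ligand of the CNTF receptor.

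Promoter windows from RefSeq, running from 250 bases before a transcript start to 50 after it, were found for 6 of the 7 members. Clcf1 was not matched. Because Cntf differed more between the stages than any other tested member, its window is shown beside those of 4 receptor genes. The windows are on GRCm38.p6, and capitals mark each CG dinucleotide on the printed strand, 5′ to 3′. The positions are chr19:12765583-12765882 (minus strand) for Cntf, chr4:41695404-41695703 (minus) for 1 of the 6 Cntfr windows and chr15:7129322-7129621 (plus) for 1 of the 2 Lifr windows. Il6st lies at chr13:112463820-112464119 (plus) and Il6ra at chr3:89913147-89913446 (minus).
Cntf: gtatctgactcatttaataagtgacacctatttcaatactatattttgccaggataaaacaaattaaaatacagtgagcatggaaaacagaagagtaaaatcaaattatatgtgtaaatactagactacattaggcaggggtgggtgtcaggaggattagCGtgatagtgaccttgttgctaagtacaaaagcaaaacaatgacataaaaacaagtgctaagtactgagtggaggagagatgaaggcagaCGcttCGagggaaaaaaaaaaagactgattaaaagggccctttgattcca
Cntfr: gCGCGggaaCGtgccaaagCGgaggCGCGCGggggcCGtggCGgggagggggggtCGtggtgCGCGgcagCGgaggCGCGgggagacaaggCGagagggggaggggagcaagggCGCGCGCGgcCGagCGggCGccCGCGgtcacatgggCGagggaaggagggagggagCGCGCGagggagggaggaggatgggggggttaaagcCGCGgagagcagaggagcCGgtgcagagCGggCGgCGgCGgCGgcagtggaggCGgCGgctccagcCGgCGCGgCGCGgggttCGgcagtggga
Lifr: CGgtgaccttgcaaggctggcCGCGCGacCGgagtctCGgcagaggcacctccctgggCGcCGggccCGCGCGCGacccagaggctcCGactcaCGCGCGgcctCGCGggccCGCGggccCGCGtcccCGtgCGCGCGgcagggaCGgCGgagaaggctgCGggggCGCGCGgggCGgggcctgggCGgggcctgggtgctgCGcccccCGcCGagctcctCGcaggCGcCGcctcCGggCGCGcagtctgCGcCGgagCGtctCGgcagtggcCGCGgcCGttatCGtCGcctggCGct
Il6st: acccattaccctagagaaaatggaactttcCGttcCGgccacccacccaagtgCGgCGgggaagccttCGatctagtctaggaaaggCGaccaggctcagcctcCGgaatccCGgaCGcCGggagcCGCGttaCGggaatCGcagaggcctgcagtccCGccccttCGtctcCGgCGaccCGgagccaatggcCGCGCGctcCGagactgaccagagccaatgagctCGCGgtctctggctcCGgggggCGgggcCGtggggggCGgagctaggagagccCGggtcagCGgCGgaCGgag
Il6ra: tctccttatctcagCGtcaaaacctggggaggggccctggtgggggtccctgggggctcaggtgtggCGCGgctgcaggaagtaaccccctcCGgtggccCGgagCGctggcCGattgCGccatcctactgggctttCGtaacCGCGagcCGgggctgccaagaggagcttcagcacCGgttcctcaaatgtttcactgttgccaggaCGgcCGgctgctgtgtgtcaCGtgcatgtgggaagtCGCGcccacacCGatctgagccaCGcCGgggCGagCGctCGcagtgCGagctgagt

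The Cntf window held 3 CG dinucleotides in 300 bases, a number that 31.38% of all 32851 windows in the table did not exceed, and 36.33% of its bases were G or C. The Cntfr window shown held 45 and the Lifr window 53. The Il6st window held 33 and the Il6ra window 25, against a median of 7 over all windows. The window of Lif, not printed, also held 7. The other 5 Cntfr windows held 3 to 47, and the other Lifr window 4. Short motifs, 3 in all, were searched on both strands in all 12 windows of the members: TTCNNNGAA (the STAT palindrome), ACAAAG (a SOX core) and TATAAA (the TATA box). None of these letter strings was in any of the 12 windows. They were in 8.30%, 18.7% and 13.6% of all windows, respectively.

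Library totals ran from 15532373 to 29562379 counts. All 15 sensory neuron markers had counts in every group, so the neurons that define this tissue were represented throughout. Rtn4 itself was at 488 ± 58.7 CPM (counts scaled to a common library total) in P25 WT and 368 ± 17.9 CPM in P25 KO (SD, n = 4), with an adjusted p of 1 by edgeR's quasi-likelihood test. All P25 KO libraries, at 345 to 384 CPM, lay below all P25 WT libraries, at 406 to 542 CPM. Of all tested genes, 1.28% were lower in KO without overlap at P25. At E14 Rtn4 stood at 144 to 521 CPM in WT and at 236 to 405 CPM in KO, and overlapped. A gene total also counts the shorter Rtn4 products, so it does not check the genotype labels. E14 WT replicate 2 and P25 WT replicate 4 lay furthest from their group mates. The median chi-square per gene against those mates was 26.3 to 40.1 and 11.3 to 15.5, compared with 3.93 to 7.70 and 3.27 to 5.65 among the mates themselves. E14 KO replicate 2 also lay further out, at 9.13 to 13.2 against 4.42 to 5.66. No library was a copy of another.

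The 7 genes covered a wide range of levels. Cntfr, Lifr and Il6st were abundant in all 16 libraries, from 108 to 658 CPM. Il6ra, Clcf1 and Lif were low throughout, and their highest libraries stood at 16.4, 1.59 and 1.11 CPM, respectively. Cntf alone among the tested members went from a few counts per library at E14 to an abundant transcript at P25. Levels were scaled with the TMM method, and a gene is said to be called where the Benjamini-Hochberg adjusted p over all 15109 tested genes was under 0.05. Of the 7 members, 6 passed the low-count filter. Lif did not, and Cntf passed it through the P25 libraries.

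**Figure D1:**
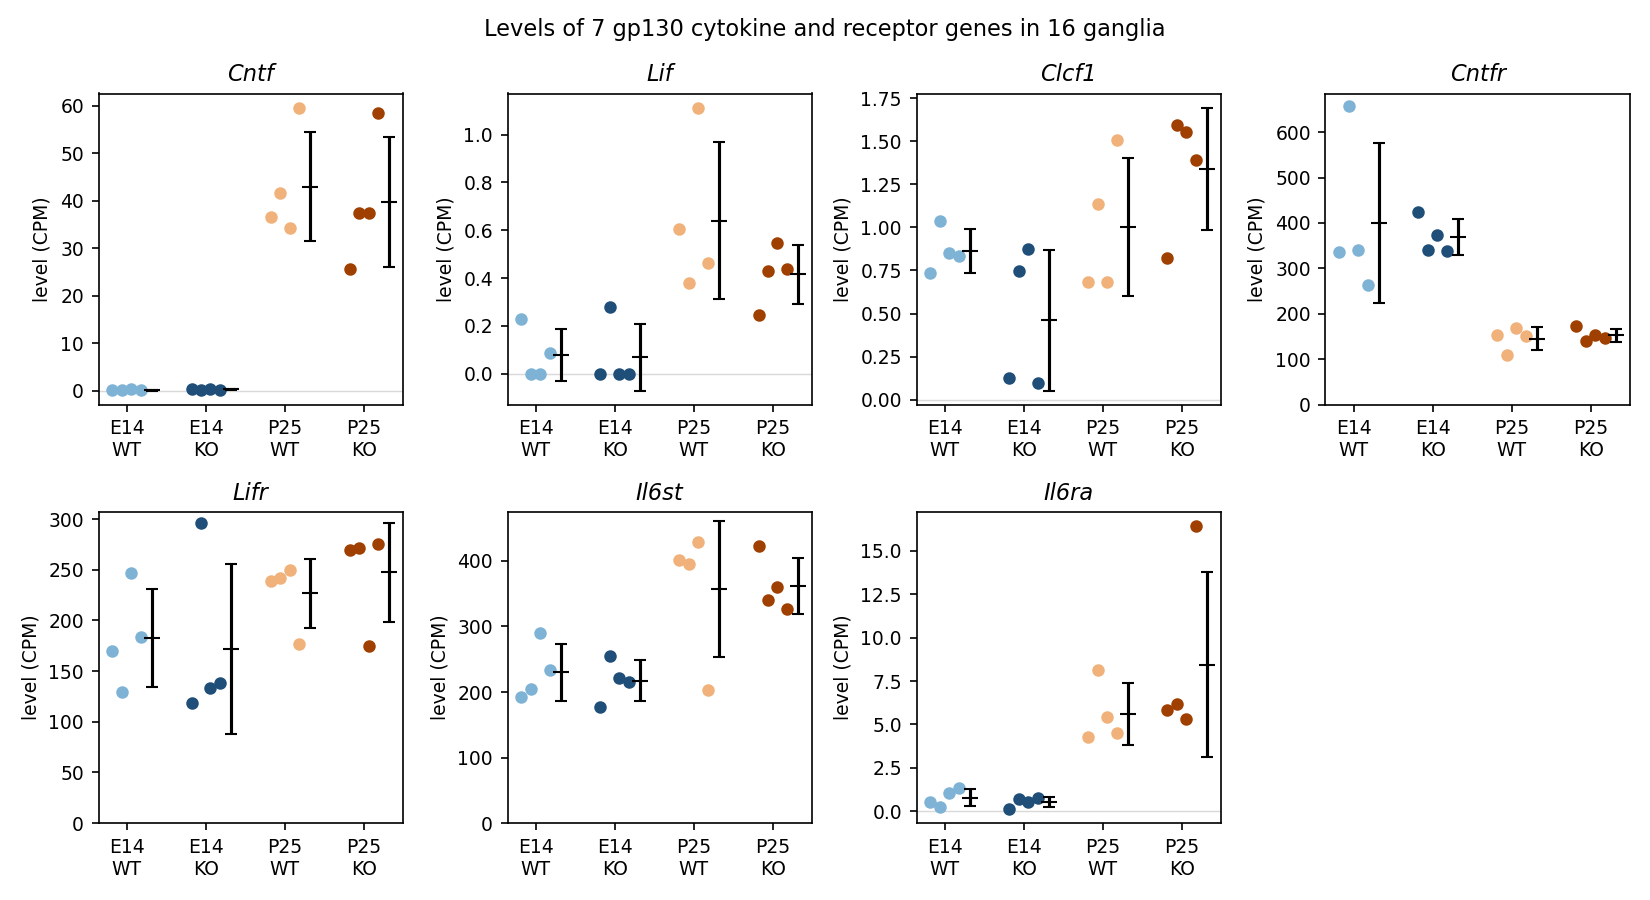
Level in CPM (linear axes from 0, a separate scale per gene) of the 7 members in the 16 libraries. Points are single ganglia, ordered by replicate number within a group, and the bar beside them is the mean ± SD of 4. Cntf lies at 0.442 CPM or less in the 8 E14 libraries and at 25.6 CPM or more in the 8 P25 libraries, Cntfr is lower at P25, and WT and KO points overlap for each gene at both stages.

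Cntf (ENSMUSG00000079415, chromosome 19, 12763660 to 12765632 on GRCm38, minus strand) was close to absent at E14 and clearly present at P25. The E14 WT libraries held 2, 1, 5 and 4 counts, or 0.0917, 0.0610, 0.284 and 0.175 CPM. The E14 KO libraries held 7, 4, 7 and 3 counts, or 0.442, 0.187, 0.408 and 0.143 CPM. No E14 library held more than 7 counts.

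At P25 the WT libraries stood at 36.6, 41.6, 34.3 and 59.7 CPM and the KO libraries at 25.6, 37.4, 37.6 and 58.5 CPM. Every P25 library lay far above every E14 library, and replicate 4 was the highest of both P25 groups. Cntf rose by 8.09 on the log2 scale in WT (SE 0.41, adjusted p = 2.72e-12) and by 7.11 in KO (SE 0.38, adjusted p = 6.33e-12). As a ratio of scaled counts this was 281-fold in WT (4396 against 12 counts, 95% counting interval 161 to 545) and 144-fold in KO (3786 against 21 counts, 93.9 to 232). These intervals cover counting error only. Cntf passed the low-count filter only through the P25 libraries, where it was high, so its stage values are a description.

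The difference between the stages did not differ between the genotypes beyond the spread. The interaction was -0.98 on the log2 scale (95% interval -2.30 to 0.34, unadjusted p = 0.139, adjusted p = 0.993), and 0% of all 15109 genes were called for it. Within a stage the KO minus WT difference of Cntf was 0.86 at E14 (95% interval -0.35 to 2.07) and -0.11 at P25 (-0.65 to 0.42). The E14 difference rests on 12 counts in WT and 21 in KO.

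Cntf lies wholly inside the span of Zfp91, a gene on the same strand, and both were counted, so reads from the shared stretch could be assigned to either. Zfp91 did not follow Cntf: its mean level was 66.2 ± 25.9 CPM in E14 WT and 76.3 ± 16.2 CPM in P25 WT, and 69.4 ± 10.4 CPM in E14 KO and 90.0 ± 9.88 CPM in P25 KO (SD, n = 4). Per kilobase of the longest transcript, Cntf was at 0.0115 of the level of Zfp91 in E14 WT and at 3.16 times it in P25 WT.

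Genes of myelin moved in the same direction as Cntf. The summed level of 14 Schwann cell markers was 808 to 1248 CPM in E14 WT and 789 to 1018 CPM in E14 KO. It was 29397 to 34591 CPM in P25 WT and 22917 to 45879 CPM in P25 KO, and 13 of the 14 markers were called higher at P25 in each genotype, where 29.7% of all tested genes were in WT and 30.6% in KO. In these whole ganglia, fewer cells of a type and less RNA per cell cannot be told apart, and the part of Schwann cell number in the rise of Cntf was not tested.

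Among the P25 libraries the order of Cntf was not the order of these markers. P25 KO replicate 4 had the lowest Schwann cell sum, 22917 CPM, and the highest Cntf of its group, 58.5 CPM. P25 KO replicate 3 had the highest sum, 45879 CPM, with Cntf at 37.6 CPM. P25 WT replicate 4 likewise combined the lowest sum of its group, 29397 CPM, with the highest Cntf, 59.7 CPM. Satellite glia markers, 11 genes, summed to 1175 to 1540 CPM in the 8 E14 libraries and to 5820 to 8827 CPM in the 8 P25 libraries. Markers of central nervous system oligodendrocytes, 7 genes, reached 0.183 CPM at most at E14 and 1.58 to 105 CPM at P25. The part of satellite glia or of central nervous system tissue in the level of Cntf was not tested.

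**Figure D2:**
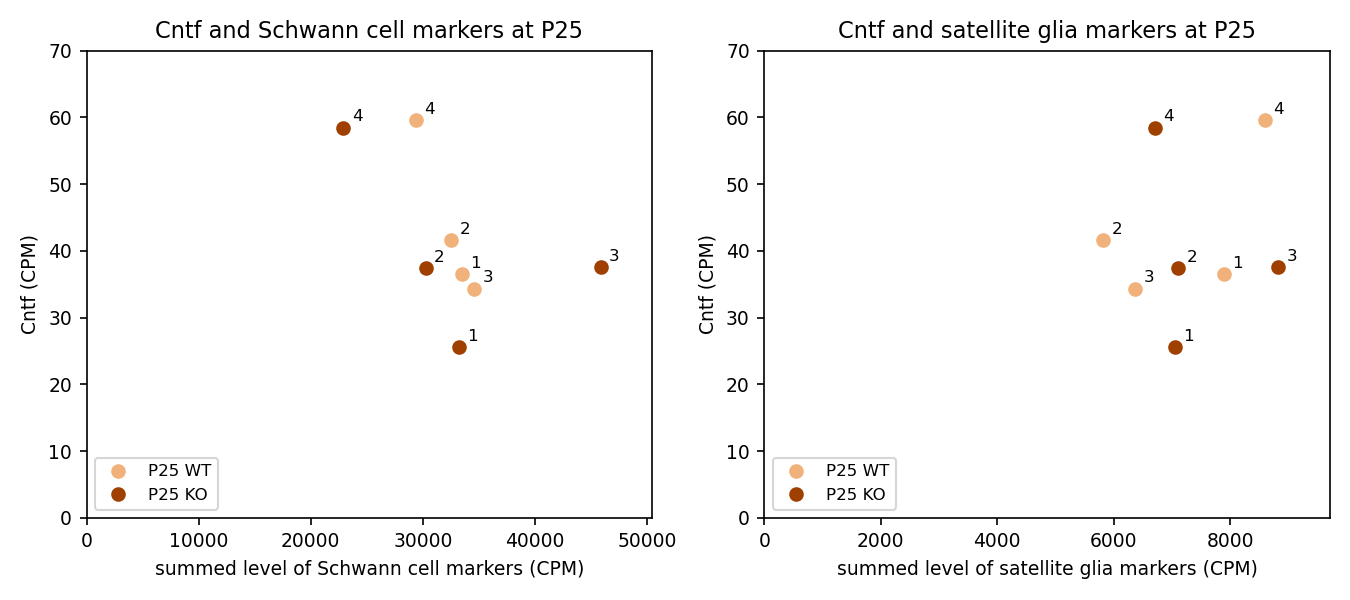
Cntf in CPM against the summed CPM of 14 Schwann cell markers (left) and 11 satellite glia markers (right) in the 8 P25 libraries, with replicate numbers beside the points. On the left, the replicate 4 libraries of both genotypes have the highest Cntf, 59.7 and 58.5 CPM, and the lowest Schwann cell sums of their groups, 29397 and 22917 CPM.

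Lif (ENSMUSG00000034394, chromosome 11, 4257557 to 4272514 on GRCm38, plus strand) was near the limit of detection. The libraries held 5, 0, 0 and 2 counts in E14 WT and 0, 6, 0 and 0 in E14 KO. They held 15, 9, 31 and 12 counts in P25 WT and 6, 10, 12 and 11 in P25 KO. A library at 0 counts allows up to 0.131 to 0.190 CPM at these E14 depths, taking 3 counts as the limit.

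In CPM, P25 WT stood at 0.604, 0.379, 1.11 and 0.464, all above the 0 to 0.229 of E14 WT. P25 KO stood at 0.247, 0.431, 0.548 and 0.437, and overlapped E14 KO through 1 library at 0.280. The ratio of scaled counts, P25 to E14, was 7.35 in WT (67 against 7 counts, 95% counting interval 3.38 to 19.0) and 5.18 in KO (39 against 6 counts, 2.18 to 14.98). By exact two-sided permutation tests over libraries, the stage difference had p = 0.0286 in WT, the smallest that 4 against 4 allow, and p = 0.0571 in KO. The genotype difference had an exact p of 1 at E14 and of 0.257 at P25, and after Benjamini-Hochberg adjustment over the 4 permutation tests the lowest p was 0.114. With no low-count filter, edgeR's quasi-likelihood test called the stage difference of Lif in WT (log2 fold change 2.89, adjusted p = 0.0109) and in KO (2.41, adjusted p = 0.0391).

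Clcf1 (ENSMUSG00000040663, chromosome 19, 4214238 to 4223490 on GRCm38, plus strand) was low at both stages. It stood at 0.734, 1.04, 0.853 and 0.833 CPM in E14 WT and at 0.126, 0.747, 0.874 and 0.0952 CPM in E14 KO. It stood at 0.684, 1.14, 0.682 and 1.51 CPM in P25 WT and at 0.823, 1.59, 1.55 and 1.39 CPM in P25 KO. Replicates 1 and 4 of E14 KO, with 2 counts each, were the lowest of the 16 libraries.

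In WT the stage difference of Clcf1 was 0.22 on the log2 scale (95% interval -0.82 to 1.26, adjusted p = 0.727). In KO Clcf1 rose by 1.52 (SE 0.52, adjusted p = 0.0172), with 1 P25 library inside the range of E14. Without E14 KO replicate 1 the KO value was 1.24 and no longer called (adjusted p = 0.0503). The test of the difference between the genotypes gave 1.30 (95% interval -0.20 to 2.81, unadjusted p = 0.0864, adjusted p = 0.993). Clcf1 overlaps AC109138.7 on the same strand, which was counted at 7.11 to 20.3 CPM, so the split of reads between them is uncertain.

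Cntfr (ENSMUSG00000028444, chromosome 4, 41657498 to 41697089 on GRCm38, minus strand), the alpha subunit that binds CNTF, went the opposite way to its ligand. It stood at 337, 658, 341 and 263 CPM in E14 WT and at 425, 341, 373 and 337 CPM in E14 KO. It stood at 154, 108, 169 and 151 CPM in P25 WT and at 172, 139, 153 and 147 CPM in P25 KO. The lowest E14 library, 263 CPM, was above the highest P25 library, 172 CPM.

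Cntfr fell by 1.46 on the log2 scale in WT (SE 0.23, adjusted p = 1.41e-05) and by 1.27 in KO (SE 0.22, adjusted p = 6.51e-05). These are levels 2.75-fold and 2.42-fold lower at P25. E14 WT replicate 2 was the highest library by a wide margin. Without it Cntfr fell by 1.11 in WT (adjusted p = 3.24e-06). The summed level of 15 sensory neuron markers was 16212 to 21597 CPM in the E14 libraries and 20601 to 25362 CPM in the P25 libraries. Of these markers, 8 were called higher and 4 lower at P25 in each genotype. Of all tested genes, 29.7% were called higher and 29.8% lower in WT, and 30.6% and 29.2% in KO. The part of neuron number in the fall of Cntfr was not tested.

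Il6st (ENSMUSG00000021756, chromosome 13, 112464070 to 112510086 on GRCm38, plus strand) encodes gp130, the chain common to the family. It stood at 192, 204, 291 and 233 CPM in E14 WT and at 178, 254, 221 and 216 CPM in E14 KO. It stood at 401, 395, 428 and 203 CPM in P25 WT and at 423, 340, 360 and 326 CPM in P25 KO. Of the 8 P25 libraries, 7 lay above all E14 libraries, and P25 WT replicate 4 lay inside the E14 range.

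Il6st rose by 0.63 on the log2 scale in WT (SE 0.21, adjusted p = 0.0118) and by 0.74 in KO (SE 0.21, adjusted p = 0.00432). Without P25 WT replicate 4 the WT value was 0.83 (adjusted p = 0.000401). Both values are small beside those of Cntf.

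Lifr (ENSMUSG00000054263, chromosome 15, 7090614 to 7197489 on GRCm38, plus strand) encodes the chain that pairs with gp130 for CNTF and LIF. It stood at 170, 130, 247 and 183 CPM in E14 WT and at 118, 297, 133 and 138 CPM in E14 KO. It stood at 238, 242, 250 and 177 CPM in P25 WT and at 269, 272, 174 and 275 CPM in P25 KO. WT and KO overlapped at both stages, and E14 and P25 overlapped in both genotypes. In KO that overlap came from E14 KO replicate 2, at 297 CPM, above all 4 P25 KO libraries.

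The stage difference of Lifr was 0.31 on the log2 scale in WT (95% interval -0.23 to 0.85, adjusted p = 0.309) and 0.53 in KO (-0.01 to 1.07, adjusted p = 0.0846). Neither was called. In KO the result turned on single libraries: without E14 KO replicate 2 it was 0.95 (adjusted p = 0.00117), and without P25 KO replicate 3 it was 0.67 (adjusted p = 0.0430). The WT interval allows a rise of up to 0.85 and a fall of up to 0.23.

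Il6ra (ENSMUSG00000027947, chromosome 3, 89864059 to 89913196 on GRCm38, minus strand), the alpha subunit for interleukin 6, was the scarcest of the 4 receptor members at both stages. It stood at 0.504, 0.244, 1.02 and 1.31 CPM in E14 WT and at 0.126, 0.700, 0.524 and 0.762 CPM in E14 KO. It stood at 4.27, 8.13, 5.45 and 4.48 CPM in P25 WT and at 5.85, 6.16, 5.34 and 16.4 CPM in P25 KO. All P25 libraries were above all E14 libraries, and P25 KO replicate 4 stood well above the other 3 KO libraries.

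Il6ra rose by 2.82 on the log2 scale in WT (SE 0.48, adjusted p = 4.55e-05) and by 3.95 in KO (SE 0.51, adjusted p = 1.53e-06). Without P25 KO replicate 4 the KO value was 3.43 (adjusted p = 5.70e-06). The interaction was 1.12 (95% interval -0.31 to 2.56, unadjusted p = 0.118, adjusted p = 0.993). The 13 macrophage markers, a cell type known to express Il6ra, summed to 68.2 to 142 CPM at E14 and to 237 to 329 CPM at P25. Of these 13 markers, 10 were called higher at P25 in WT and 12 in KO, where 29.7% and 30.6% of all tested genes were. P25 KO replicate 4, with the highest Il6ra at 16.4 CPM, had the lowest macrophage sum of the P25 libraries, 237 CPM. Hepatocytes, listed as cells of an organ that expresses Il6ra, were not expected in these ganglia. Of 4 hepatocyte markers, Alb and Serpina1a were at 0 in all 4 groups, and the other 2 summed to 0.291 to 1.19 CPM in the E14 libraries and 0.0412 to 0.386 CPM in the P25 libraries. The part of macrophages or of any other cell type in the level of Il6ra was not tested.

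Of the set, 4 of the 6 tested members were called between the stages in WT, 3 higher (Cntf, Il6st, Il6ra) and 1 lower (Cntfr). In KO 5 of 6 were called, the same 4 genes in the same directions and Clcf1. Of all tested genes 59.6% were called between the stages in WT and 59.8% in KO, so these counts by themselves are near the background. Higher at P25 were 29.7% and 30.6% of all tested genes, and lower 29.8% and 29.2%. Among the 6 tested members, the libraries of the stages did not overlap for 2 higher and 1 lower in WT, where 26.1% and 24.2% of all tested genes did not, and for 3 higher and 1 lower in KO, where 30.5% and 29.3% did not. The median stage difference of the 6 tested members was 0.47 in WT and 1.13 in KO on the log2 scale, and that of all tested genes 0.00 and 0.01. Cntf, which passed the low-count filter only through the P25 libraries, where it was high, is part of these counts and medians.

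No tested member was called between KO and WT at either stage. At E14 edgeR's quasi-likelihood test called 0 of 6 members, 0 also at an unadjusted p under 0.05, and DESeq2 called 0. In that comparison 0.0199% of all tested genes were called. At P25 the same 3 counts were 0, against 0.0463% of all tested genes. The lowest unadjusted p was 0.116 at E14 (Clcf1, log2 fold change -0.89, 95% interval -2.02 to 0.24) and 0.166 at P25 (Il6ra, 0.60, -0.27 to 1.47). The libraries of the genotypes overlapped for all 7 members at both stages. Of all tested genes, 0.523% were higher and 1.11% lower in KO without overlap at E14, and 2.05% and 1.28% at P25.

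The intervals say how much the design leaves room for. For Cntfr the KO minus WT difference was -0.12 at E14 (95% interval -0.58 to 0.34) and 0.07 at P25 (-0.39 to 0.53). For Il6st it was -0.08 at E14 (-0.51 to 0.34) and 0.02 at P25 (-0.41 to 0.45). For Lifr it was -0.09 at E14 (-0.63 to 0.45) and 0.13 at P25 (-0.41 to 0.67). Stage by genotype interactions were likewise called for 0 of 6 members by edgeR and by DESeq2, with 0 at an unadjusted p under 0.05.

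**Figure D3:**
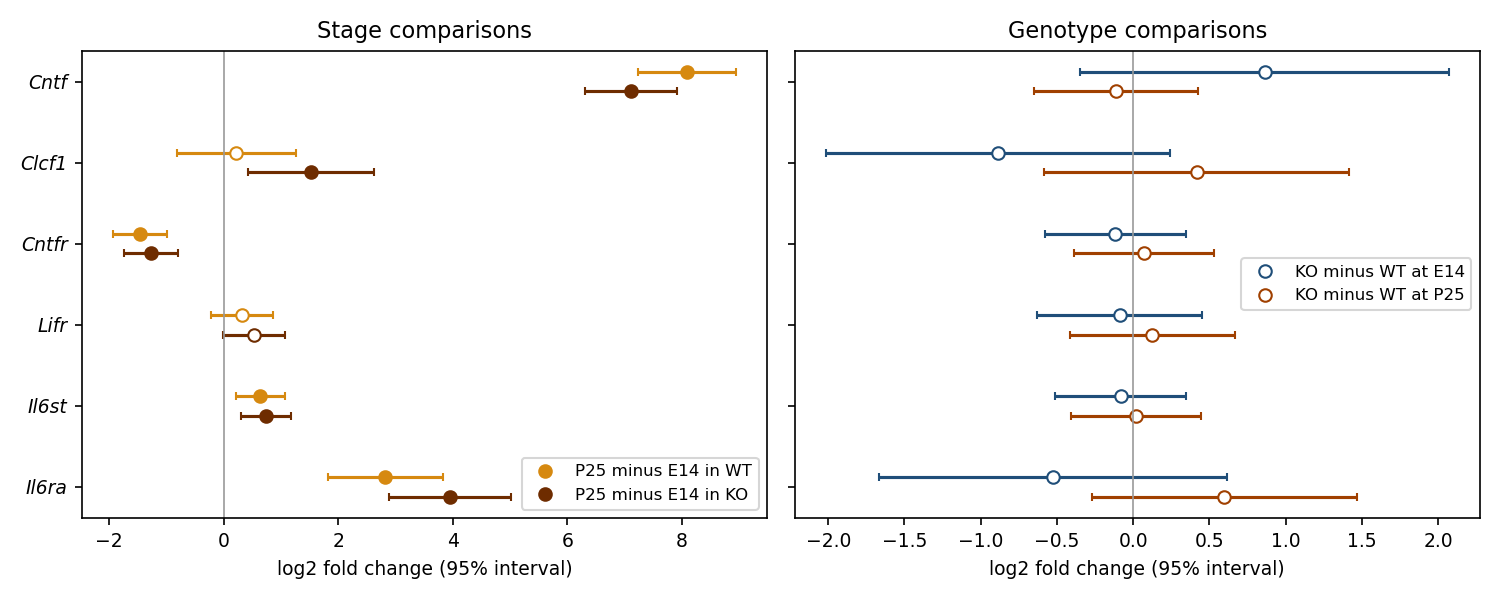
Log2 fold changes of the 6 tested members with 95% intervals from edgeR, P25 minus E14 in WT and KO (left) and KO minus WT at E14 and P25 (right). Filled points have an adjusted p under 0.05 and open points do not. On the left, Cntf stands at 8.09 and 7.11, Cntfr at -1.46 and -1.27, and on the right every interval includes 0.

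Levels can be set beside each other only per length, here as CPM per kilobase of the longest transcript. In E14 WT the order was Cntfr (200 ± 88.0), Il6st (26.5 ± 5.05), Lifr (18.9 ± 5.03), Clcf1 (0.243 ± 0.0356), Cntf (0.143 ± 0.0931), Il6ra (0.0893 ± 0.0562) and Lif (0.0197 ± 0.0269; SD, n = 4 throughout). In P25 WT it was Cntfr (72.8 ± 13.0), Il6st (41.1 ± 11.9), Cntf (40.1 ± 10.7), Lifr (23.5 ± 3.50), Il6ra (0.646 ± 0.206), Clcf1 (0.282 ± 0.112) and Lif (0.159 ± 0.0816). Cntf thus went from the level of the scarce members to that of the abundant receptor chains. At E14 neighbours in this order overlapped between libraries, except Cntfr with Il6st and Lifr with Clcf1. At P25 Il6st overlapped with Cntf, and Clcf1 with Lif, and the other neighbours did not overlap.

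The KO groups had nearly the same order. In E14 KO Cntf, at 0.275 ± 0.142 CPM per kilobase, stood above Clcf1, at 0.130 ± 0.115, and their libraries overlapped. In P25 KO Cntf stood at 37.1 ± 12.8 CPM per kilobase, between Il6st (41.7 ± 4.93) and Lifr (25.7 ± 5.06). With the median transcript length in place of the longest, Cntfr, Il6st and Lifr in P25 WT became 211, 128 and 72.7 CPM per kilobase, and Cntf, with a length that does not change, then lay below all 3.

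The make-up of the receptor transcripts shifted between the stages. Of the summed length-scaled level of Cntfr, Il6st, Lifr and Il6ra, Cntfr made up 79.8% in E14 WT (74.2 to 89.9% over 4 libraries) and 53.0% in P25 WT (43.2 to 64.1%). In KO it made up 81.1% (74.0 to 86.7%) and 52.8% (50.7 to 56.0%). The ranges of the stages did not overlap in either genotype.

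Il6st took 11.7% in E14 WT (6.43 to 15.1%) and 29.5% in P25 WT (19.9 to 36.1%), and Lifr 8.47% (3.66 to 11.1%) and 17.1% (15.5 to 19.9%). In KO Il6st took 11.1% at E14 (8.33 to 12.7%) and 28.8% at P25 (26.5 to 30.4%). Lifr took 7.81% at E14 in KO (4.98 to 13.29%) and 17.7% at P25 (13.22 to 20.4%), so the stages overlapped there through E14 KO replicate 2 and P25 KO replicate 3. Il6ra took at most 1.34% in any library. Since shares sum to a whole, the larger shares of Il6st and Lifr at P25 include the fall of Cntfr. The level of Cntfr relative to Lifr, per kilobase, was 6.70 to 24.6 in E14 WT and 2.17 to 4.12 in P25 WT. That of Il6st relative to Lifr was 1.26 to 1.76 and 1.28 to 1.90, and overlapped. With the median transcript length the Cntfr share was 78.7% in E14 WT and 51.4% in P25 WT.

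**Figure D4:**
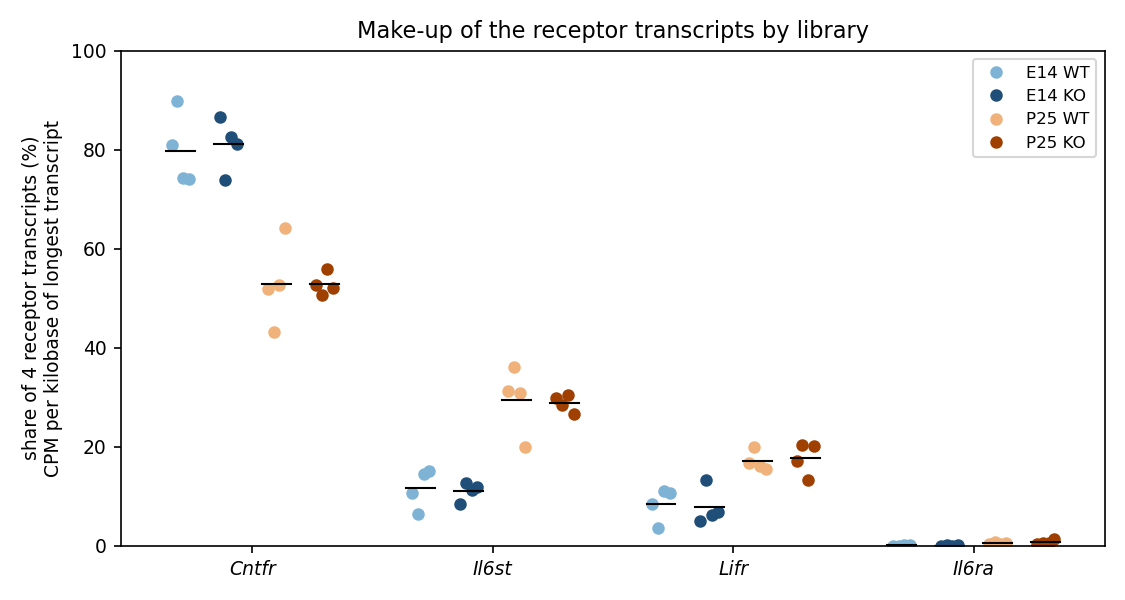
Share (%) of each of 4 receptor genes in their summed level per kilobase of the longest transcript, for the 4 libraries of each group, with the group mean as a line. Cntfr holds 74.0 to 89.9% in the E14 libraries and 43.2 to 64.1% in the P25 libraries, Il6st is higher in every P25 library, and Lifr overlaps between the stages in KO.

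The genes listed as other ligands and receptors of the family numbered 12, and the listing does not show that each signals through gp130. Of these, 6 passed the filter, 2 of them only through the P25 libraries. Called higher at P25 in both genotypes were 3, among them the receptor genes Osmr and Il31ra. Osmr encodes the oncostatin M receptor. It had 1, 0, 11 and 6 counts in E14 WT and 371, 286, 353 and 226 in P25 WT, or 0 to 0.625 CPM against 8.73 to 14.9 CPM. The ratio of scaled counts, P25 to E14, was 52.8 in WT (95% counting interval 33.2 to 89.3) and 28.3 in KO (20.5 to 40.2), and the groups did not overlap in either genotype. Osmr passed the low-count filter only through the P25 libraries, where it was high, so these values are a description.

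Il31ra, a receptor chain for interleukin 31, went from 0.638 ± 0.318 to 8.59 ± 3.29 CPM in WT (SD, n = 4; rose by 3.73 on the log2 scale, adjusted p = 8.04e-08) and rose by 3.76 in KO (adjusted p = 8.02e-08). Ctf1, which encodes cardiotrophin 1, was called lower in WT, and the partner subunit gene Ebi3 in KO, and neither was called in the other genotype or for the interaction. Both calls were close to the threshold (adjusted p = 0.0468 and 0.0473), and each was lost in 19 of 24 alternative fits. Il11ra1, which has a near-identical copy in the mouse genome and so is uncertain, stood at 18.7 ± 4.26 CPM in E14 WT and 21.6 ± 5.53 CPM in P25 WT (SD, n = 4; adjusted p = 0.435). Il6 had 0 to 2 counts per group. Osm had 0 counts in both E14 groups, 7 in P25 WT and 23 in P25 KO, and neither gene passed the filter.

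Downstream of the receptors, the tested list of Janus kinases, STATs, phosphatases, adaptors and feedback genes had 33 members, and all 33 passed the filter. Called between the stages in WT were 8 higher and 12 lower, and in KO 9 higher and 7 lower, of which 7 and 7 were shared. These are 20 and 16 of 33, near or below the background of 59.6% and 59.8%. The median difference of the list was -0.13 in WT and -0.24 in KO. Over the alternative fits the WT counts ran from 4 to 10 higher and 9 to 15 lower. The KO counts ran from 7 to 10 higher and 4 to 13 lower, and were 9 higher and 13 lower without E14 WT replicate 2.

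Socs3, the feedback inhibitor that binds gp130, went down while the receptor chain went up. It was at 44.6 to 78.0 CPM in E14 WT and 9.52 to 15.6 CPM in P25 WT, and at 41.2 to 49.7 CPM in E14 KO and 11.5 to 12.1 CPM in P25 KO. It fell by 2.05 on the log2 scale in WT (SE 0.19, adjusted p = 2.27e-08) and by 1.99 in KO (SE 0.19, adjusted p = 3.69e-08). No P25 library reached the lowest E14 library.

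Socs1, another inhibitor of Janus kinases, fell from 14.3 ± 4.28 to 1.51 ± 0.622 CPM in WT (SD, n = 4; fell by 3.24, adjusted p = 3.73e-08) and by 2.68 in KO (adjusted p = 4.21e-07). Socs2 fell by 1.48 in WT and by 1.47 in KO. Cish rose by 0.64 and by 0.93, and Socs5 by 0.50 and by 0.53. The WT call of Cish was lost in the fit to the compared libraries only (0.63, adjusted p = 0.0569). Ptpn1, a phosphatase of Janus kinases, fell by 1.92 and by 1.53. The feedback genes thus differed in direction.

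The kinases Jak1 and Jak2 were not called in either genotype. Jak1 was at 232 ± 96.0 CPM in E14 WT and 277 ± 36.6 CPM in P25 WT (SD, n = 4; adjusted p = 0.409), and Jak2 at 16.6 ± 8.91 and 11.8 ± 0.951 CPM (adjusted p = 0.189). Tyk2 fell by 0.86 in WT (adjusted p = 0.00305), and its difference in KO was -0.39 (adjusted p = 0.152). Jak3, which serves other cytokine receptors, fell by 1.59 in WT and by 0.77 in KO. The KO call was lost without E14 KO replicate 2 (-0.64, adjusted p = 0.0544).

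Stat3, the main transcription factor of the pathway, was at 220, 343, 251 and 232 CPM in E14 WT and at 348, 375, 374 and 275 CPM in P25 WT. It rose by 0.39 in WT (SE 0.16, adjusted p = 0.0427) and by 0.46 in KO (SE 0.16, adjusted p = 0.0200). The WT call was lost in 5 of 24 alternative fits, among them the fit to the compared libraries only (0.38, adjusted p = 0.147). The KO call was lost without E14 KO replicate 1 (0.42, adjusted p = 0.0544). Larger changes were those of Stat6, from 18.6 ± 2.06 to 148 ± 13.1 CPM in WT (rose by 2.99, adjusted p = 1.07e-10), and Stat5a, from 3.86 ± 0.895 to 15.4 ± 2.51 CPM (rose by 2.00, adjusted p = 2.94e-07; SD, n = 4). Both serve mainly other cytokine receptors.

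Of 32 genes known from other systems as induced by gp130 and STAT3, 28 were tested. In WT 16 were called higher and 3 lower at P25, and in KO 19 higher and 3 lower. These are 19 and 22 of 28, where 59.6% and 59.8% of all tested genes were called either way, 29.7% and 30.6% higher and 29.8% and 29.2% lower. Of the 28, 3 (Gfap, Osmr and Nnmt) passed the low-count filter only through the P25 libraries, where they were high. Shared by both genotypes were 15 and 3. The list's median difference was 0.84 in WT and 1.09 in KO, against 0.00 and 0.01 over all tested genes. Over the alternative fits the WT counts ran from 12 to 20 higher and 3 to 6 lower, and the KO counts from 19 to 22 higher and 3 to 4 lower. These genes respond to many signals, and the list includes Osmr, Il6st, Stat3 and Socs3, already described.

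The largest difference among the tested genes of the list was that of Gfap, an intermediate filament gene of glia. It had 0, 2, 0 and 4 counts in E14 WT and 3799, 1863, 26 and 4722 in P25 WT. In WT the ratio of scaled counts was 1333 (10410 against 6 counts, 95% counting interval 612 to 3633), and in KO 2 counts at E14 stood against 10975 at P25 (ratio 4375, 1211 to 36128). P25 WT replicate 3, with 26 Gfap counts, also had the lowest oligodendrocyte sum of the P25 libraries. In P25 WT replicates 1 to 4, Gfap was at 153, 78.5, 0.933 and 182 CPM and the oligodendrocyte sum at 70.1, 21.6, 1.58 and 90.5 CPM. The part of central nervous system tissue in the Gfap value was not tested.

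Serpina3n, a protease inhibitor gene, was at 8.07 to 11.3 CPM in E14 WT and at 135 to 158 CPM in P25 WT (rose by 4.04, adjusted p = 5.64e-13). Bcl6, a transcriptional repressor gene, rose by 3.60 (adjusted p = 4.63e-09). Lower at P25 were Socs3, Gal and Myc. Gal, which encodes the neuropeptide galanin, went from 107 ± 6.64 to 5.79 ± 1.78 CPM in WT (SD, n = 4; fell by 4.21, adjusted p = 2.13e-11), and Myc fell by 1.81 (adjusted p = 3.60e-08). The list thus held strong changes in both directions.

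**Figure D5:**
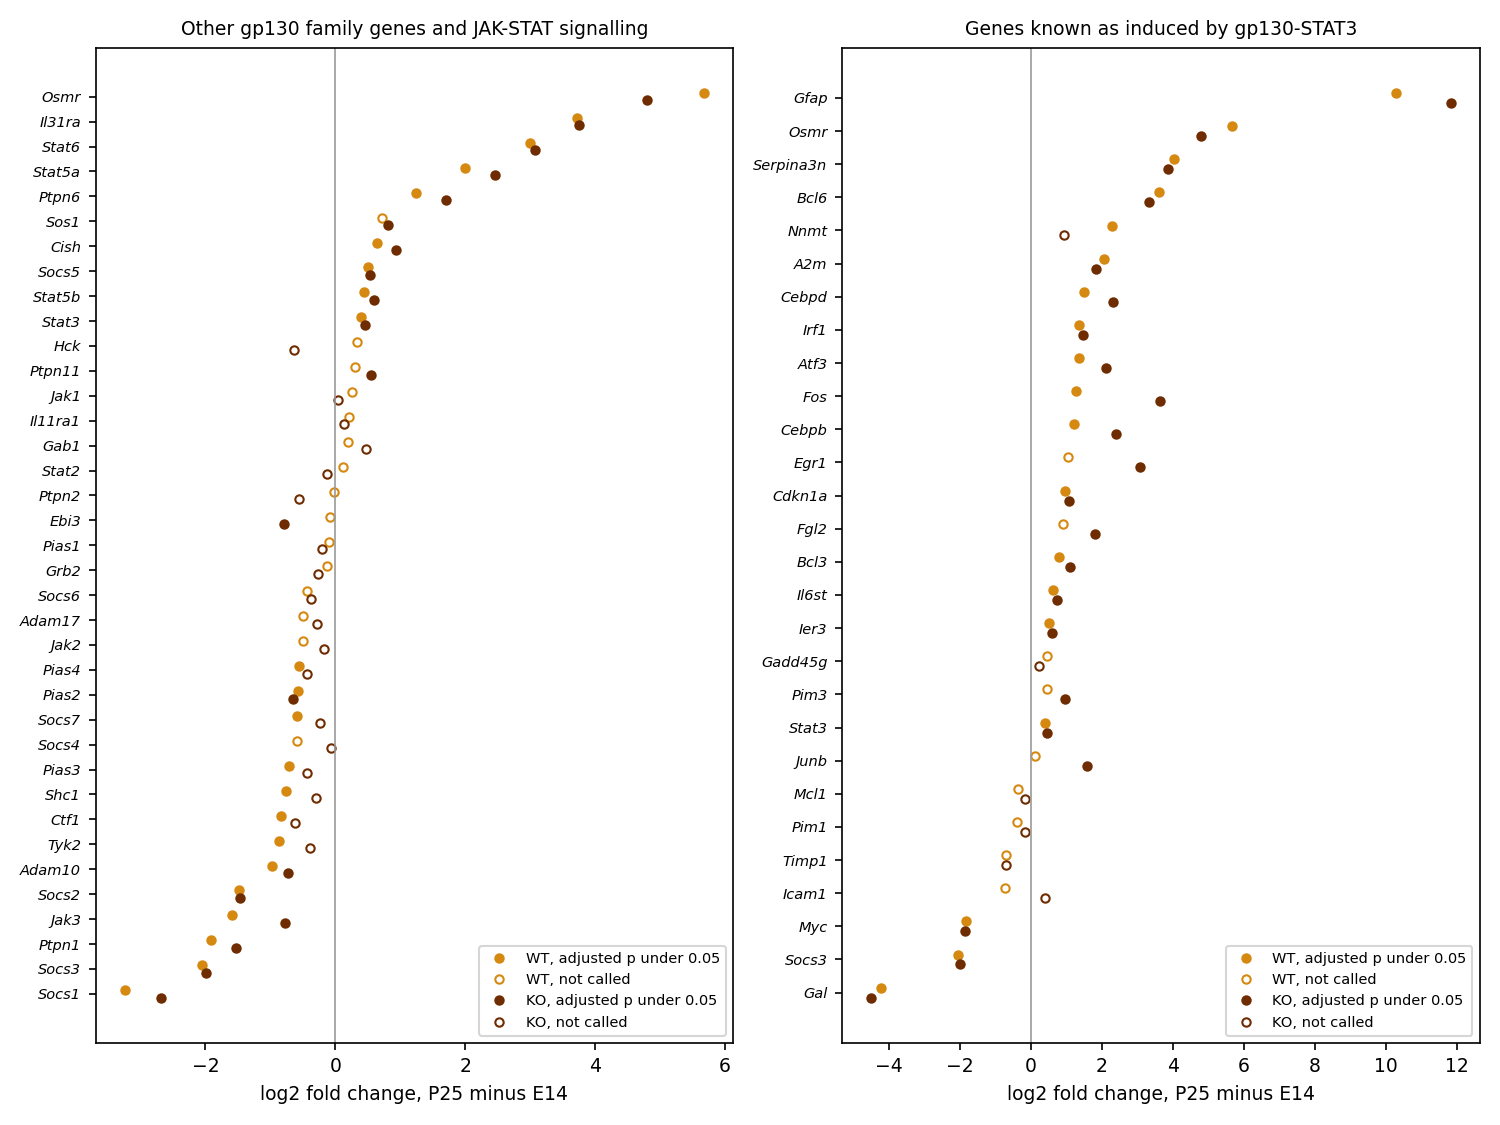
Log2 fold change, P25 minus E14, in WT and KO for the tested genes reported here. The left panel holds genes listed as other gp130 family members and the JAK-STAT list. The right panel holds genes known as induced by gp130 and STAT3. Filled points have an adjusted p under 0.05. Osmr and Il31ra stand at the top left, Socs1 and Socs3 at the bottom left, and on the right Gfap and Gal mark the 2 ends.

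In the fit to all 16 libraries after the low-count filter, edgeR's quasi-likelihood test called no gene of these 3 lists between the genotypes at either stage. Of all 15109 tested genes, 735 had an unadjusted edgeR p under 0.05 at E14 and 282 at P25, and DESeq2 called 5 and 18. Among the 33 signalling genes, 3 had an unadjusted p under 0.05 at E14 and 1 at P25, and DESeq2 called 0 at both. Among the 28 induced genes, 1 had an unadjusted p under 0.05 at E14 and 5 at P25, and DESeq2 called 0 and 3. The 3 genes at P25, named after their values were seen, were Egr1, Fos and Junb, immediate early genes that answer many stimuli. Their edgeR adjusted p-values were 0.0734, 0.169 and 0.313. With no low-count filter edgeR called Egr1 (adjusted p = 0.0166), and without P25 KO replicate 4 it called all 3 (adjusted p = 4.63e-07, 0.000153 and 0.00189). Egr1 stood at 548, 516, 431 and 13.6 CPM in P25 KO and at 26.0 to 62.0 CPM in P25 WT, so 3 KO libraries were above and 1 was below all WT libraries. At E14 Egr1 stood at 27.2 to 59.5 CPM in KO, above the 16.1 to 24.8 CPM of WT. Of all tested genes, 0.523% were higher in KO without overlap at E14. Fos and Junb overlapped between the genotypes at E14.

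Genes with the most similar pattern to each member were found by Pearson's r of log2 CPM over the 16 libraries, among 9633 genes whose mean level reached 10 CPM. With 2 stages in the same 16 libraries such values mostly rank genes by their stage difference, and they are given as a description. Closest to Cntf were Art3, St3gal6 and Asb13 (r = 0.993 each). Closest to Cntfr were Lrfn1 (0.994), Phc2 (0.991) and Palm (0.991), and Lrfn1 went from 208 CPM in E14 WT to 76.3 CPM in P25 WT. Among the 3 closest to Il6st was Glg1 (0.963). Closest to Il6ra were Osbpl1a (0.974), Ghr (0.973) and Cipc (0.971), and closest to Lifr were Ntrk3 (0.937), Snap91 (0.931) and Glcci1 (0.930). For Clcf1 the best value was 0.756 (Rsrp1), the lowest of the 6 tested members.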

How the data were processed

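RNA of whole trigeminal ganglia was sequenced from stranded mRNA libraries, per the labels' protocols. Each deposited file lists an estimated count for every gene, rounded to whole numbers by the authors. Per the submitters' processing notes the tools were fastp 0.20.0, kallisto 0.46 and DESeq2 1.32.0 and the assembly GRCm39. The counting's strand setting is not given in the sources used here. Such counts divide reads between similar or overlapping transcripts by a model. Gene positions and transcript lengths came from a GRCm38 annotation and promoters from RefSeq (GRCm38.p6). Of the identifiers, 25614 had a symbol.

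Library totals of 15532373 to 29562379 counts set the precision, and counting intervals and limits cover counting error only. The test was edgeR's (4.0.16, R 4.3.3) quasi-likelihood F test with 1 mean per group over 16 libraries, after filterByExpr and TMM scaling, with Benjamini-Hochberg adjustment over 15109 genes. Unless another tool is named, adjusted p-values, standard errors (SE) and 95% intervals come from this fit. Lif, outside the filter, was tested by exact permutation. Groups and replicate numbers came from the sample titles. The fit was tested on simulated data. Alternatives were DESeq2 1.42.0, other scalings and filters, the replicate number as a block, same-numbered ganglia summed, the compared libraries alone, leaving out each library, and another transcript length.

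The members and lists were chosen with earlier results of these data known. All members are named, as are genes of the family and signalling lists. Of the induced list the rule named up to 4 called genes each way with the largest change in WT and a mean level of 1 CPM or more, and like patterns took the 3 highest r. A few genes that these rules took are left out of the text and figures. In the main fit, replicate numbers were not used to pair the samples. Figures were drawn with matplotlib 3.10.9.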

Additional observations from a re-analysis of the deposited data

Results flagged for a closer look

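In 6 of 28 member and group combinations examined, the highest or lowest library lay far from the other 3 by Dixon's criterion. Chance flags about 1 in 20. Lif in E14 KO replicate 2 was at 0.280 CPM, from 6 counts, with the other 3 libraries at 0. Lifr in the same library was at 296.5 CPM, with the others at 118 to 138 CPM. Lifr was also low in P25 WT replicate 4, at 176.6 CPM against 238 to 250 CPM, and in P25 KO replicate 3, at 174.4 CPM against 269 to 275 CPM. Il6st in P25 WT replicate 4 was at 203.4 CPM against 395 to 428 CPM, so both signalling chains of the CNTF receptor were low in that library. The difference was not particular to them: the median chi-square per gene against its group mates was 11.3 to 15.5. Zfp91 was also its group's lowest there, at 54.0 CPM against 78.6 to 92.8 CPM, and Cntf its group's highest, at 59.7 CPM. Il6ra in P25 KO replicate 4 was at 16.4 CPM against 5.34 to 6.16 CPM.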

How the results depend on the processing

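Outside the leave-one-out fits, 240 of 241 member values kept their direction and their side of the threshold. The exception was Lif between the stages in KO, called without a low-count filter at 2.41 on the log2 scale. The numbers of genes called between the genotypes moved more. At E14 DESeq2 called 5 in place of 3. At P25 DESeq2 called 18 in place of 7, the fit with summed ganglia 11, and the fits with a replicate block and with the compared libraries only 3 each. For the interaction DESeq2 called 8 in place of 0. The replicate block changed no call of a member. For libraries with the same replicate number in different groups, Pearson's r of deviations from the group means ran from -0.43 to 0.27. The samples were treated as unpaired, and these values do not tell whether the R and L pairs come from 1 animal.

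Leaving out each library in turn gave 1 to 5 calls at E14, 3 to 14 at P25 (14 without P25 KO replicate 4) and 0 to 7 for the interaction (7 without the same library). The cause was not tested. The stage counts ran from 8408 to 9688 in WT and from 8343 to 10284 in KO. Values of members that crossed 0 or the threshold ranged as follows. KO minus WT ran from -0.36 to 0.084 for Cntf at P25, -0.22 to 0.23 (E14) and -0.044 to 0.15 (P25) for Cntfr, -0.45 to 0.11 for Lifr at E14, and -0.14 to 0.083 (E14) and -0.17 to 0.12 (P25) for Il6st. The interaction ran from -0.16 to 0.29 for Cntfr and -0.090 to 0.20 for Il6st. Between the stages Clcf1 ran from -0.046 to 0.37 in WT and from 1.20 to 2.03 in KO, and Lifr from 0.39 to 0.95 in KO. The difference in mean CPM of Lif ran from -0.0792 to 0.0408 between the genotypes at E14, and between the stages from 0.403 to 0.647 in WT and from 0.302 to 0.416 in KO. Depth was the limit for the scarce members: per library, E14 held 1 to 7 counts of Cntf, 0 to 6 of Lif, 2 to 19 of Clcf1 and 2 to 30 of Il6ra, and P25 held 6 to 31 of Lif.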
